A study of Mus musculus with 3 samples.

Results

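The genes described here are the collagens, taken as all 44 gene symbols in the data that read Col, a type number, the letter a and a chain number, of 31744 symbols in all. They cover 27 collagen types. They were read in 3 single-cell RNA libraries of mouse embryonic fibroblasts driven toward induced motor neurons, 1 library per group. All cells had the Hb9::GFP genotype, a green reporter for motor neuron identity. All received LNI, a cassette of Lhx3, Ngn2 and Isl1, and DDRR, which couples HRAS(G12V) to p53DD, a dominant-negative p53 fragment. The first library came from 14 dpi cultures (dpi being the labels' unit of time) with supplements (BDNF, CNTF, GDNF, FGF and RepSox, an inhibitor of the TGF-beta receptor kinase), sorted for Hb9::GFP. The second came from 14 dpi cultures without supplements, sorted in the same way. The third came from 4 dpi cultures with supplements, sorted for low CellTrace-FarRed dye, which marks fast-dividing cells. No group lacked LNI or DDRR, and no starting fibroblasts were among the libraries analysed here.

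Collagens are secreted proteins whose chains wind into triple helices. Fibrillar types such as I, III and V form the load-bearing fibres laid down by fibroblasts, type IV forms the sheet of basement membranes, and type VI forms beaded filaments around cells. Fibril-associated collagens (FACITs) decorate fibres, and the multiplexins XV and XVIII sit at basement membranes. Fibroblasts are the main source of fibrillar collagen, and TGF-beta signalling is a known inducer of type I collagen genes. Neurons make little fibrillar collagen.

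Kept cells numbered 2314 with supplements, 3716 without them and 4492 at 4 dpi, with median depths of 14380.5, 10664 and 2312.5 UMIs (unique molecular identifiers, each 1 captured transcript) per cell. Pairs of libraries shared 3 to 5 cell barcodes. The 4 dpi cells were freed with trypsin and the 14 dpi cells with papain and DNase, so stage, sort gate, dissociation and depth cannot be told apart in the comparison of times. Levels are given as CPM, the UMIs of a gene per 1000000 UMIs. Summed over 14 neuron markers, the libraries stood at 10003 CPM with supplements, 5951 CPM without them and 1745 CPM at 4 dpi. Summed over 15 fibroblast markers they stood at 2648, 3691 and 6023 CPM. Schwann, endothelial, epithelial, immune and skeletal muscle markers summed to between 0.571 and 9.87 CPM per list in every library, and Krt5 (keratinocytes) and Cd3e (T cells) had 0 UMIs in all 3. Smooth muscle and pericyte markers summed to 24.4, 41.3 and 143 CPM, and osteoblast markers, mostly Runx2, to 50.1, 46.1 and 31.9 CPM. Chondrocyte markers summed to 66.5, 99.2 and 45.9 CPM, nearly all of it Sox9, while Matn1 had 0 UMIs in both 14 dpi libraries. With 1 library per group there was no test and no p-value; all intervals are 95% and cover counting error only, which PCR and the spread between cultures can exceed.

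Collagen transcripts were least abundant in the 14 dpi library with supplements. All 44 genes together gave 1943 CPM (1929 to 1957) with supplements, 3972 CPM (3954 to 3990) without them and 4906 CPM (4867 to 4945) at 4 dpi, or 0.194%, 0.397% and 0.491% of UMIs. The log2 ratio of the sum was -1.03 (-1.04 to -1.02) with over without supplements and -1.34 (-1.35 to -1.32) for 14 over 4 dpi with supplements. Both ratios use the same 14 dpi library with supplements. Of the 44 genes, 17 reached 10 CPM with supplements, 18 without them and 19 at 4 dpi; 16 did so in all 3 libraries and 21 in at least 1.

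**Figure D1:**
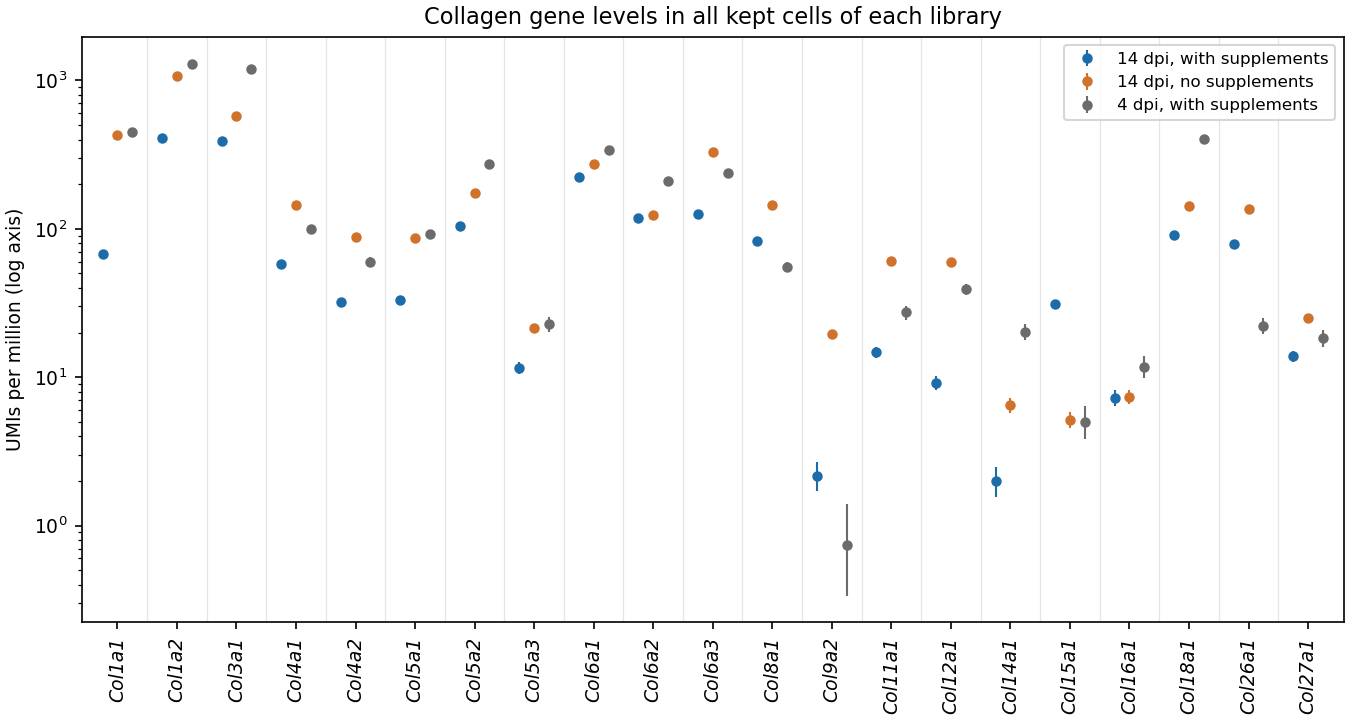
CPM (log axis) of the 21 collagen genes that reached 10 CPM in at least 1 library, summed over all kept cells of each library; points are the values of single libraries and bars are exact Poisson 95% intervals for counting error. Col1a1 lies at 68.1 CPM with supplements, far below 432 CPM without supplements and 450 CPM at 4 dpi, while Col15a1 lies at 31.2 CPM with supplements, above both other libraries.

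Types I, III and VI led in every library, and their order differed. The 3′ counts read 1 end per transcript and are not divided by length. How fully each gene was captured was not measured, so shares and ratios between genes are of UMIs and not of transcripts in the cell. Type I took 24.4% of collagen UMIs in the library with supplements, 38.0% in that without them and 35.3% at 4 dpi. Type III, a homotrimer of the Col3a1 chain, made up 20.2%, 14.5% and 24.4% in the same order of libraries. Type VI made up 24.5%, 18.3% and 16.1%, so that with supplements it stood level with type I. Type XVIII took 4.69%, 3.60% and 8.24%, and type IV 4.89%, 6.03% and 3.43%. Fibrillar collagens together made up 53.8% with supplements, 62.0% without them and 68.6% at 4 dpi.

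The other 23 genes stayed under 10 CPM in all 3 libraries, with highest values between 0.0819 CPM for Col19a1, a fibril-associated collagen, and 9.9977 CPM for Col13a1, a transmembrane collagen, at 4 dpi. Col2a1, the cartilage fibril collagen, stood at 0.245, 0.131 and 0.0819 CPM, and Col8a2 had 0 UMIs at 4 dpi, which allows up to 0.246 CPM. A few genes of this low group are named after their values were seen. Col6a4, a type VI chain, gave 3.32 CPM (2.75 to 3.96) with supplements, 0.240 CPM (0.120 to 0.429) without them and 0.246 CPM at 4 dpi. Col25a1, a transmembrane collagen that mouse motor axons need to innervate muscle, gave 2.75 CPM with supplements, 5.93 CPM without them and 5.41 CPM at 4 dpi. It was low in every library, and lowest in the one with the highest neuron marker sum.

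In the comparison of supplements at 14 dpi, most collagens that could be compared were lower with supplements. A gene was compared where its mean over both libraries was at least 10 CPM, and a change of at least 2-fold was counted, since no test was possible. Of 19 collagens compared, 9 were at least 2-fold lower with supplements and 1 was at least 2-fold higher, beside 4.49% of all 8894 genes lower and 3.88% higher. The median log2 ratio was -0.89 over the collagens and 0.03 over all genes, and 18 of the 19 collagens were below 0. In the same libraries the summed neuron markers stood at 10003 CPM against 5951 CPM, with 5 of 14 at least 2-fold higher and 1 lower. Of 14 fibroblast markers compared, 1 was higher and 2 were lower.

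Among fibrillar genes, the type I pair differed unequally. Col1a1, the major type I chain, stood at 68.1 CPM with supplements, 432 CPM without them and 450 CPM at 4 dpi; its log2 ratio with over without supplements was -2.66 (-2.72 to -2.60), a 6.34-fold lower level. Col1a2, its partner chain, stood at 407, 1080 and 1284 CPM, with a log2 ratio of -1.41 (-1.43 to -1.38). Col1a2 therefore outnumbered Col1a1 by 5.97 UMIs to 1 with supplements (5.73 to 6.23), by 2.50 without them (2.46 to 2.54) and by 2.85 at 4 dpi (2.77 to 2.94). Col3a1, which co-assembles with type I in skin and vessel fibres, stood at 392 CPM with supplements, 578 CPM without them and 1195 CPM at 4 dpi, a log2 ratio of only -0.56 (-0.59 to -0.53) between the 14 dpi libraries. The type I and III genes were thus all lowest with supplements, Col1a1 by the widest margin and Col3a1 by the narrowest.

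The minor fibrillar chains, which seed fibrils and set their width, followed. Col5a1 stood at 33.0 CPM with supplements, 87.3 CPM without them and 92.8 CPM at 4 dpi (log2 -1.40, -1.497 to -1.31, with over without supplements). Col5a2 stood at 104, 175 and 274 CPM (log2 -0.75, -0.80 to -0.69), and Col5a3 at 11.6, 21.4 and 22.8 CPM (log2 -0.89, -1.06 to -0.72). Col11a1, a type XI chain known from cartilage, stood at 14.7 CPM with supplements, 61.0 CPM without them and 27.3 CPM at 4 dpi (log2 -2.05, -2.19 to -1.92), so it was highest without supplements rather than at 4 dpi. Col27a1, another cartilage fibrillar collagen, stood at 13.8, 25.1 and 18.3 CPM (log2 -0.86, -1.02 to -0.71).

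The network collagens were highest without supplements. Col4a1 and Col4a2 encode the main chains of basement membrane type IV and lie head to head on chromosome 8 on opposite strands. Their annotated transcripts overlap by 22 bases at their starts, so these bases lie within both transcripts and not upstream of them. They are shown because the genes start so close together. In the RefSeq table for GRCm38.p6, an older build than the GRCm39 of the counts, the overlap lies at chr8:11312805-11312826. It reads on the plus strand, with nothing capitalised, as follows.
Col4a1 and Col4a2: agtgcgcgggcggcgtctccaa
Col4a1 stood at 57.9 CPM with supplements, 145 CPM without them and 99.6 CPM at 4 dpi (log2 -1.33, -1.40 to -1.26). Col4a2 stood at 32.2, 87.8 and 59.7 CPM (log2 -1.45, -1.54 to -1.35). The pair kept a ratio of 1.80 (1.67 to 1.93), 1.66 (1.59 to 1.72) and 1.67 (1.52 to 1.83) UMIs of Col4a1 per UMI of Col4a2 in the 3 libraries. Col8a1, a short-chain network collagen of vessel walls and the cornea, stood at 82.2, 144 and 55.0 CPM (log2 -0.81, -0.87 to -0.75).

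Type VI did not move as 1 unit. Col6a1 stood at 225 CPM with supplements, 272 CPM without them and 341 CPM at 4 dpi (log2 -0.28, -0.32 to -0.24), and Col6a2 at 119, 124 and 210 CPM (log2 -0.06, -0.12 to -0.01). Col6a3, the large chain of the filament, stood at 126, 327 and 237 CPM (log2 -1.38, -1.43 to -1.33). The ratio of Col6a3 to Col6a2 was 1.06 (1.01 to 1.10) with supplements, 2.64 (2.56 to 2.72) without them and 1.13 (1.07 to 1.19) at 4 dpi. The library without supplements thus stood apart in its Col6a3, while the Col6a1 to Col6a2 ratio ranged from 1.63 to 2.19.

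The lowest ratios were those of fibril-associated genes, and the highest was that of a multiplexin. Col9a2, a type IX chain known from cartilage, stood at 2.15 CPM with supplements, 19.5 CPM without them and 0.738 CPM at 4 dpi (log2 -3.18, -3.53 to -2.85). It was the sole type IX chain to reach 10 CPM; Col9a1 stood at 3.75, 1.18 and 1.15 CPM. Col12a1, which coats type I fibrils, stood at 9.11, 60.1 and 39.0 CPM (log2 -2.72, -2.89 to -2.56). Col14a1, a relative of Col12a1, gave 1.98 CPM (1.56 to 2.50), 6.48 CPM (5.76 to 7.26) and 20.2 CPM (17.7 to 22.8), and Col16a1 gave 7.29, 7.33 and 11.7 CPM. Col15a1, a multiplexin of basement membrane zones, was the gene higher with supplements: 31.2 CPM (29.4 to 33.0), against 5.15 CPM (4.51 to 5.85) without supplements and 5.00 CPM (3.82 to 6.42) at 4 dpi, a log2 ratio of 2.60 (2.40 to 2.81) between the 14 dpi libraries. Its relative Col18a1, the precursor of endostatin, stood at 91.1, 143 and 404 CPM (log2 -0.65, -0.71 to -0.59). Col26a1, an EMI-domain protein with short collagen repeats, stood at 78.7, 136 and 22.1 CPM (log2 -0.79, -0.85 to -0.72).

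The upstream sequences of 3 genes that the results turn on are given because they stand for 3 patterns: at 14 dpi Col3a1 differed most between the cell classes described further on, Col8a1 hardly at all, and Col15a1 ran against the other collagens under supplements. Each is the 250 bases before the annotated start, from RefSeq's promoter table for GRCm38.p6, in the direction of the gene. Capitals mark CAGAC, the core of the element bound by SMAD proteins downstream of TGF-beta receptors, or GTCTG, the same letters read on the other strand. Col3a1 lies at chr1:45311288-45311537 on the plus strand, Col8a1 at chr16:57754738-57754987 on the minus strand and Col15a1 at chr4:47207762-47208011 on the plus strand.
Col3a1: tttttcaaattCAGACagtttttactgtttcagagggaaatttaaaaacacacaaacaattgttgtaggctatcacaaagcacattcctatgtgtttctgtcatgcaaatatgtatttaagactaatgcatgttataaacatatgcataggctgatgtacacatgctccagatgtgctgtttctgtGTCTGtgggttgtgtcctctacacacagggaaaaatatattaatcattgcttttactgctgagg
Col8a1: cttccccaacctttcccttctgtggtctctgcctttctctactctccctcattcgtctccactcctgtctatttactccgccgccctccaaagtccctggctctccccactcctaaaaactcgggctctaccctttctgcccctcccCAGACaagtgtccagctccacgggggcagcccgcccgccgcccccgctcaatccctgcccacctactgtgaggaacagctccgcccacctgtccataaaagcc
Col15a1: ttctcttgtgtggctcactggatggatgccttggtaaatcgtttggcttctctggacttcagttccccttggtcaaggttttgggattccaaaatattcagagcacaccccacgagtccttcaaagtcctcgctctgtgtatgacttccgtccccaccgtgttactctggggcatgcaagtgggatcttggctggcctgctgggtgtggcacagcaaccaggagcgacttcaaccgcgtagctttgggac
The motif was found 2 times for Col3a1, 1 time for Col8a1 and 0 times for Col15a1. Such short letters are common: 42.2% of all 32851 windows of 250 bases in the table held it on either strand, as did 17 of the 38 windows (44.7%) that matched 35 of the collagen genes. A match in these letters is a description and not a binding site.

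Genes that build and handle collagen chains were examined beside the collagens. The counts in these lists stand beside 4.49% of all genes at least 2-fold lower with supplements and 3.88% higher. Of 12 enzymes and partners of prolyl and lysyl modification compared, which stabilise the helix and prepare crosslinks, 5 were at least 2-fold lower with supplements and 0 higher. P4ha1, a prolyl 4-hydroxylase subunit, stood at 49.1 CPM with supplements and 204 CPM without supplements (log2 -2.06), and Plod2, a lysyl hydroxylase, at 86.5 and 222 CPM (log2 -1.36). Ppib, a prolyl isomerase, ran the other way within 2-fold (690 against 582 CPM, log2 0.25). Of 10 chaperones and export factors, 2 were lower and 0 higher; Serpinh1, the collagen chaperone HSP47, stood at 317 against 551 CPM (log2 -0.80). Of 3 procollagen processing genes, 0 passed 2-fold in either direction.

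Crosslinking and matrix partners gave the widest ratios of these lists. Lox, the lysyl oxidase that crosslinks fibrils, stood at 12.995 CPM with supplements and 96.7 CPM without supplements (log2 -2.90), and 2 of 3 crosslinking genes compared were at least 2-fold lower. Of 8 collagen-binding matrix proteins, 4 were lower and 1 was higher. Tnc (tenascin C) stood at 10.1 against 55.0 CPM (log2 -2.45) and Bgn (biglycan) at 64.6 against 313 CPM (log2 -2.28). Lum (lumican) was the one higher, at 125 against 55.5 CPM (log2 1.17), and Dcn (decorin) stood at 208 against 131 CPM (log2 0.67), so small proteoglycans of fibrils lay on both sides. Of 5 collagen receptors, Itga1 (integrin alpha 1) was higher, at 46.2 against 15.004 CPM (log2 1.62), and Mrc2, which takes up collagen for breakdown, was lower, at 11.4 against 37.2 CPM (log2 -1.70).

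Between the 2 times with supplements, type I, III and XVIII transcripts were far lower at 14 dpi. Of 19 collagens compared, 8 were at least 2-fold lower at 14 dpi and 2 at least 2-fold higher, beside 9.28% of all 8742 genes lower and 13% higher; the medians were -0.91 over collagens and 0.10 over all genes. The log2 ratio of 14 over 4 dpi was -2.72 (-2.79 to -2.66) for Col1a1, -1.66 (-1.69 to -1.63) for Col1a2 and -1.61 (-1.64 to -1.57) for Col3a1. Col18a1 stood at -2.15 (-2.21 to -2.09), Col12a1 at -2.10 (-2.30 to -1.89) and Col14a1 at -3.34 (-3.74 to -2.96) on the same scale. Col15a1 was higher, at 2.64 (2.27 to 3.04), as was Col26a1, at 1.83 (1.65 to 2.02); Col8a1 stood at 0.58 (0.46 to 0.70). The summed network genes stood at -0.33 (-0.40 to -0.27), with Col8a1 above 0 and Col4a1 at -0.78 (-0.89 to -0.68) and Col4a2 at -0.89 (-1.02 to -0.75) below it. The summed fibrillar genes stood at -1.69 (-1.71 to -1.67), and their members compared lay between -2.72 for Col1a1 and -0.40 (-0.63 to -0.17) for Col27a1, with Col11a1 at -0.89 (-1.09 to -0.69).

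The accessory lists differed in the same comparison, where 9.28% of all genes were at least 2-fold lower at 14 dpi and 13% higher. At least 2-fold lower at 14 dpi were 6 of 12 modification genes, 4 of 10 chaperones and export factors, 1 of 4 processing genes, 3 of 3 crosslinking genes, 7 of 8 matrix proteins and 0 of 5 receptors. P4ha2, another prolyl 4-hydroxylase subunit, was the sole gene of these lists at least 2-fold higher (141 CPM at 14 dpi, 47.9 CPM at 4 dpi, log2 1.56). Serpinh1 stood at 317 CPM at 14 dpi and 981 CPM at 4 dpi (log2 -1.63). Of 15 fibroblast markers 11 were at least 2-fold lower and 0 higher, and all 13 neuron markers compared were at least 2-fold higher at 14 dpi; the gate and the dissociation changed with time as well, and their part in the result was not tested.

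Cells were then divided by whether they held UMIs of Col1a1, the fibroblast collagen, or of Stmn2, a tubulin-binding protein of growing axons. Cells with Col1a1 and no Stmn2 UMIs are called Col1a1-positive, and those with Stmn2 and no Col1a1 UMIs Stmn2-positive. Col1a1-positive cells were 193 of 2314 with supplements (8.34%, 7.25 to 9.54), 1296 of 3716 without supplements (34.9%, 33.3 to 36.4) and 1832 of 4492 at 4 dpi (40.8%, 39.3 to 42.2). Stmn2-positive cells were 1250 (54.0%, 52.0 to 56.1), 775 (20.9%, 19.6 to 22.2) and 36 (0.801%, 0.562 to 1.11). Cells with UMIs of both genes numbered 89, 210 and 12, and cells with neither 782, 1435 and 2612.

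Detection of a gene depends on depth, so the classes were also called after each cell was thinned to 1000 UMIs, which left out 31 cells with supplements, 22 without them and 113 at 4 dpi. Col1a1-positive cells then made up 4.38% with supplements, 19.7% without them and 28.1% at 4 dpi, and Stmn2-positive cells 35.0%, 12.2% and 0.571%. The order of the libraries was the same with and without thinning. Both 14 dpi libraries were sorted for the reporter and the 4 dpi library was not. At 4 dpi 24 of the 36 Stmn2-positive cells held a single Stmn2 UMI and the class held 98586 UMIs in all, so values of that class are thin.

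Marker genes that did not define the classes were set beside them. Of all genes, 12.8% were at least 2-fold lower in Col1a1-positive cells with supplements, 15.3% without them and 18.8% at 4 dpi. With supplements 9.83% were at least 2-fold higher. With supplements the fibroblast markers summed to 8425 CPM in Col1a1-positive cells and 1606 CPM in Stmn2-positive cells, and 9 of 15 were at least 2-fold higher. The neuron markers apart from Stmn2 summed to 4200 CPM in Col1a1-positive cells and 10708 CPM in Stmn2-positive cells, with 10 of 12 at least 2-fold lower. Without supplements the sums were 7317 and 1032 CPM for fibroblast markers and 2794 and 9481 CPM for neuron markers apart from Stmn2; at 4 dpi they were 9839 and 2120 CPM, and 1422 and 6309 CPM. Without supplements 12 of 13 neuron markers apart from Stmn2 were at least 2-fold lower, and at 4 dpi 11 of 12, where Gap43 was higher (271 and 122 CPM, log2 1.15, 0.34 to 2.11). Neuron marker UMIs were therefore still read in Col1a1-positive cells of every library. Free RNA in the suspension and doublets were not removed, and their part in these values was not tested.

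Collagen transcripts apart from Col1a1 were concentrated in Col1a1-positive cells of each library. They stood at 8179 CPM in Col1a1-positive cells and 750 CPM in Stmn2-positive cells with supplements (log2 3.45, 3.42 to 3.48). Without supplements they stood at 6994 and 957 CPM (log2 2.87, 2.84 to 2.90), and at 4 dpi at 7037 and 1765 CPM (log2 1.995, 1.78 to 2.22). Cells with UMIs of both genes lay between, at 4091, 3361 and 6596 CPM, as did cells with neither, at 2008, 1840 and 2807 CPM. The Col1a1-positive cells held 35.7% of these UMIs, Col1a1 left out, with supplements, 67.8% without them and 61.4% at 4 dpi. Median depth per cell was 14271 UMIs in Col1a1-positive cells and 15350 in Stmn2-positive cells with supplements, 10615.5 and 11581 without supplements, and 2119 and 2515.5 at 4 dpi.

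Of 18 collagens compared with supplements, 17 were at least 2-fold higher in Col1a1-positive cells and 0 lower, beside 9.83% of all genes higher and 12.8% lower. Without supplements it was 15 of 17 higher and 0 lower, beside 8.73% and 15.3%. At 4 dpi it was 11 of 17 higher and 0 lower, beside 10.8% and 18.8%; Col12a1 is counted there on a bound, since Stmn2-positive cells held 0 of its UMIs, and the intervals of Col4a2 and Col14a1 reached below 0. The median log2 ratio over the collagens was 3.45, 3.19 and 1.46 in the 3 libraries, and -0.17, -0.20 and -0.16 over all genes. Cells of 1 library are not replicates of a condition, and these counts describe each library.

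**Figure D2:**
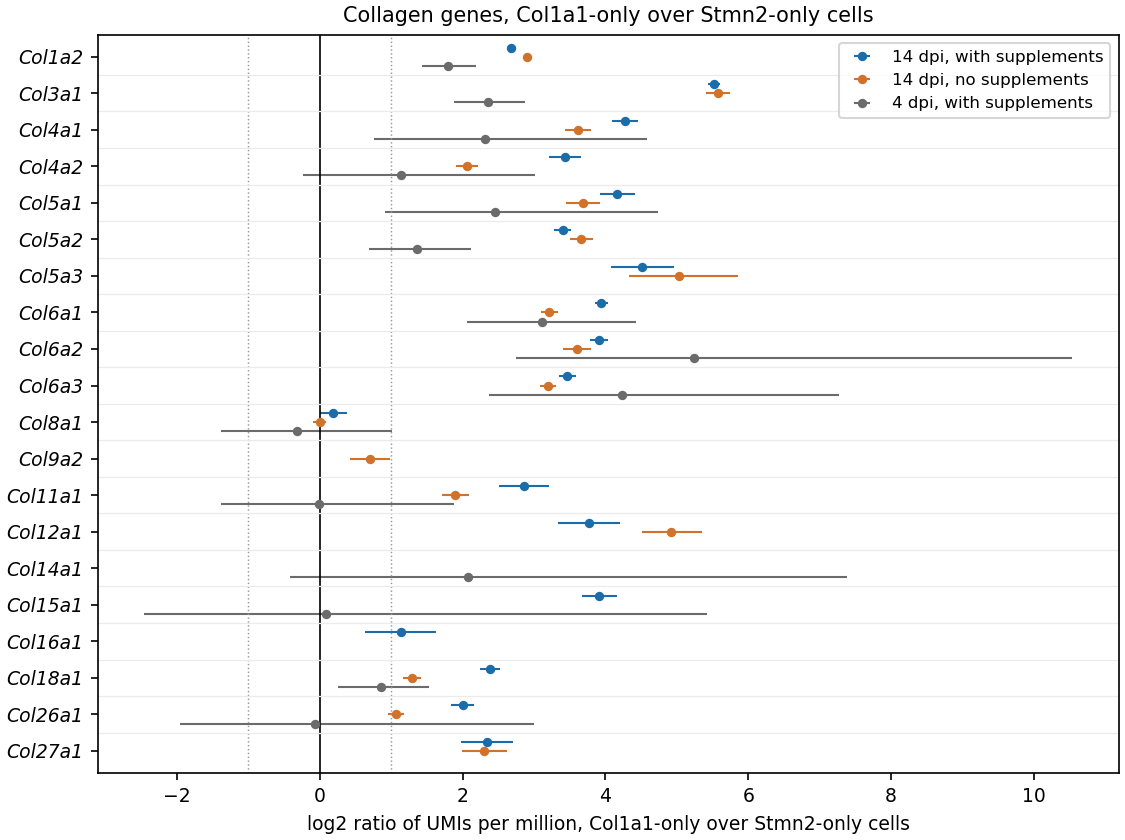
Log2 ratio of CPM in Col1a1-positive cells (Col1a1 and no Stmn2 UMIs) over Stmn2-positive cells, per collagen gene and library; bars are 95% intervals for counting error, dotted lines mark a 2-fold change, and genes whose mean was under 10 CPM or that had no UMI in 1 class are left out for that library. Col3a1 lies farthest right at 14 dpi (5.52 with supplements, 5.57 without supplements), Col8a1 lies near 0, and the 4 dpi intervals are wide.

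Col3a1 was the collagen that separated the classes most at 14 dpi. It stood at 2601 CPM in Col1a1-positive cells and 56.7 CPM in Stmn2-positive cells with supplements, 45.9-fold higher (log2 5.52, 5.43 to 5.61). Without supplements it stood at 1394 and 29.3 CPM (log2 5.57, 5.41 to 5.74), and at 4 dpi at 1864 and 365 CPM (log2 2.35, 1.88 to 2.87). Col1a2, in contrast, was still read in Stmn2-positive cells: 1463 CPM in Col1a1-positive cells and 229 CPM in Stmn2-positive cells with supplements (log2 2.68, 2.62 to 2.74), and 2161 and 288 CPM without supplements (log2 2.91, 2.85 to 2.96). At 4 dpi it stood at 2150 and 619 CPM (log2 1.80, 1.43 to 2.18), which came to 0.95 with cells positive for both genes counted in each class.

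After thinning to 1000 UMIs, a Col1a2 UMI was found in 60.4% of Col1a1-positive cells and 15.8% of Stmn2-positive cells with supplements, and in 71.4% and 20.7% without supplements. For Col3a1 the shares were 77.6% and 3.47% with supplements, and 57.5% and 2.46% without supplements. Free RNA in the suspension can place UMIs in cells that do not express a gene, and how much of the Stmn2-positive values it made up was not tested. The ratio of Col3a1 to Col1a2 was not the same in the classes, as it was 1.78 (1.71 to 1.85) in Col1a1-positive cells and 0.248 (0.233 to 0.264) in Stmn2-positive cells with supplements. Without supplements it was 0.645 (0.634 to 0.656) and 0.102 (0.0899 to 0.114).

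The other fibrillar chains and type VI stood at smaller ratios than Col3a1 at 14 dpi. With supplements Col5a1 stood at 4.16, Col5a2 at 3.40 and Col5a3 at 4.51 on the log2 scale of Col1a1-positive over Stmn2-positive cells, and without supplements at 3.68, 3.66 and 5.04. Col6a1, Col6a2 and Col6a3 stood at 3.94, 3.91 and 3.47 with supplements and at 3.21, 3.60 and 3.19 without supplements. At 4 dpi Col6a1 stood at 3.11 (2.06 to 4.42), from 611 CPM in Col1a1-positive cells and 71.0 CPM, or 7 UMIs, in Stmn2-positive cells. Col12a1 stood at 3.76 (3.34 to 4.20) with supplements and 4.92 (4.51 to 5.35) without supplements, where Col1a1-positive cells had 147 CPM and Stmn2-positive cells 4.86 CPM. In Stmn2-positive cells at 4 dpi, Col12a1 and Col5a3 had 0 UMIs. Col15a1 with supplements stood at 151 CPM in Col1a1-positive cells and 9.99 CPM in Stmn2-positive cells (log2 3.92, 3.68 to 4.16).

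The basement membrane pair split its ratio between the classes. Col4a1 stood at 4.27 (4.09 to 4.46) and Col4a2 at 3.43 (3.21 to 3.65) on the log2 scale with supplements, and at 3.61 (3.43 to 3.79) and 2.06 (1.91 to 2.22) without supplements. Per UMI of Col4a2, Col1a1-positive cells held 2.15 (1.91 to 2.41) UMIs of Col4a1 and Stmn2-positive cells 1.199 (1.02 to 1.41) with supplements. Without supplements the ratio was 1.88 (1.79 to 1.97) in Col1a1-positive cells and 0.644 (0.549 to 0.754) in Stmn2-positive cells, so that Col4a2 outnumbered Col4a1 in that class of that library and in no other 14 dpi class compared. At 4 dpi the Stmn2-positive class held 3 and 4 UMIs of the pair, too few to place it.

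Of the collagens compared, Col8a1 had the lowest ratio between the classes in each library. Next came Col16a1 (log2 1.14, 0.63 to 1.63), Col26a1, Col27a1 (log2 2.34, 1.98 to 2.71) and Col18a1 with supplements, and Col9a2 (log2 0.70, 0.42 to 0.98), Col26a1 and Col18a1 without supplements. At 4 dpi Col26a1 (log2 -0.06), Col11a1 (log2 -0.01) and Col15a1 (log2 0.08) also lay near 0, from 2, 4 and 1 UMIs in the Stmn2-positive class. Col8a1 stood at 88.4 CPM in Col1a1-positive cells and 77.5 CPM in Stmn2-positive cells with supplements (log2 0.19, -0.00 to 0.38). Without supplements it stood at 151 CPM in both (log2 -0.00, -0.09 to 0.09), a sign that turned under other scalings, to 0.20 when ratios were centred on the median of all genes. At 4 dpi it stood at 56.7 and 71.0 CPM (log2 -0.32, -1.39 to 1.00), with 7 UMIs in the Stmn2-positive class. It was 1.08% of collagen UMIs apart from Col1a1 in Col1a1-positive cells and 10.3% in Stmn2-positive cells with supplements, and 2.17% and 15.8% without supplements.

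Col26a1 stood at 172 CPM in Col1a1-positive cells and 43.0 CPM in Stmn2-positive cells with supplements (log2 1.998, 1.84 to 2.16), and at 165 and 78.5 CPM without supplements (log2 1.07, 0.95 to 1.19). The ratio without supplements came to 0.96 with every cell weighted equally and to 0.81 with cells positive for both genes counted in each class. Col18a1 stood at 257 and 49.2 CPM with supplements (log2 2.38, 2.25 to 2.52), at 171 and 69.8 CPM without supplements (log2 1.29, 1.17 to 1.41) and at 403 and 223 CPM at 4 dpi (log2 0.85, 0.25 to 1.53). Without supplements it came to 0.94 with cells positive for both genes counted in each class. Cells with neither gene held 169 CPM of Col18a1 without supplements and 408 CPM at 4 dpi, close to the Col1a1-positive level in the same library.

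**Figure D3:**
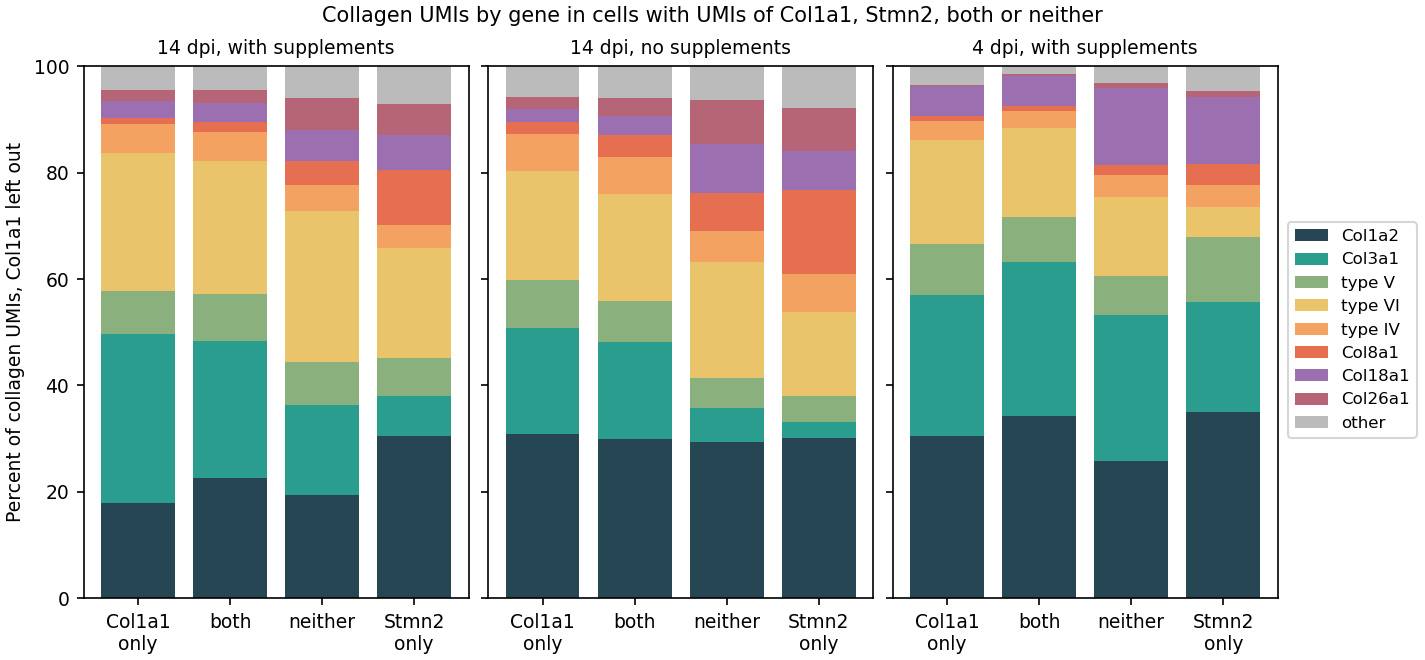
Percent of collagen UMIs, Col1a1 left out, taken by each gene or type in cells with UMIs of Col1a1 only, both genes, neither or Stmn2 only, for each library. Col3a1 takes 31.8% in Col1a1-positive and 7.56% in Stmn2-positive cells with supplements and 19.9% and 3.06% without supplements, while Col8a1 widens to 10.3% and 15.8% in Stmn2-positive cells.

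Many of the genes that handle collagen were also higher in Col1a1-positive cells, to an extent that differed between the lists. With supplements the median log2 ratio was 3.03 over the matrix proteins, 1.81 over processing genes, 1.67 over modification genes, 1.34 over crosslinking genes, 1.11 over chaperones and export factors and 0.44 over receptors, beside -0.17 over all genes. At least 2-fold higher in Col1a1-positive cells with supplements were 9 of 12 modification genes, 6 of 10 chaperones and export factors, 2 of 4 processing genes, 3 of 3 crosslinking genes, 6 of 8 matrix proteins and 2 of 5 receptors. Without supplements they were 9 of 13, 4 of 10, 2 of 4, 3 of 3, 8 of 8 and 1 of 5, and at 4 dpi 4 of 12, 4 of 9, 1 of 4, 3 of 4, 8 of 8 and 2 of 5. Of all genes, 9.83% were at least 2-fold higher with supplements, 8.73% without them and 10.8% at 4 dpi. Several of the genes counted at 4 dpi had few UMIs in Stmn2-positive cells. The intervals of P3h1 (1 UMI), Plod1 (1 UMI) and Tnc (2 UMIs) reached below 0 there. In these lists 0 genes were at least 2-fold lower in any library. The matrix list shares Dcn, Lum, Fn1 and Sparc with the fibroblast markers.

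Single genes of these lists show the span. Crtap, of the prolyl 3-hydroxylase complex, stood at 80.1 CPM in Col1a1-positive cells and 9.19 CPM in Stmn2-positive cells with supplements (log2 3.12), and Pcolce, an enhancer of procollagen cleavage, at 323 and 32.1 CPM (log2 3.33). Dcn showed the widest split of these lists, at 1719 and 10.9 CPM with supplements (log2 7.30) and 339 and 2.33 CPM without supplements (log2 7.18). P4ha2 ran the other way within 2-fold, at 108 and 154 CPM with supplements (log2 -0.50). The chaperones and export factors ran with supplements from Mia2, which helps to load procollagen for export, at 52.5 and 55.0 CPM (log2 -0.07), to Fkbp10, a prolyl isomerase, at 51.8 and 7.54 CPM (log2 2.78).

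The comparison of supplements was repeated within the classes. In Col1a1-positive cells, the collagens apart from Col1a1 stood at 8179 CPM with supplements and 6994 CPM without supplements (log2 0.23, 0.21 to 0.25). In Stmn2-positive cells they stood at 750 and 957 CPM (log2 -0.35, -0.39 to -0.32). Of 21 collagens compared in Col1a1-positive cells, 2 were at least 2-fold higher with supplements and 3 lower, beside 4.58% and 4.01% of all genes. Of 13 compared in Stmn2-positive cells, 0 were higher and 2 lower, beside 3.63% and 5.83%. Over all cells of the libraries the same collagens stood at 1875 CPM with supplements and 3540 CPM without supplements.

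Class shares and levels were exchanged as a calculation. With the class levels of the library with supplements and the class shares of UMIs of the library without them, collagens apart from Col1a1 would stand at 4021 CPM. With the levels of the library without supplements and the shares of the library with them, they would stand at 1817 CPM. The values observed were 1875 CPM with supplements and 3540 CPM without them. The classes are set by UMIs of Col1a1, itself a collagen that was lower with supplements, so the shares are not independent of collagen levels and the calculation names no cause. For Col3a1 the exchange gave 1114 and 192 CPM in that order, against 392 CPM observed with supplements and 578 CPM without, so Col3a1 was higher with supplements at either set of shares. For Col1a2 it gave 767 and 547 CPM, against 407 and 1080 CPM observed, so Col1a2 was lower with supplements at either set of shares.

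**Figure D4:**
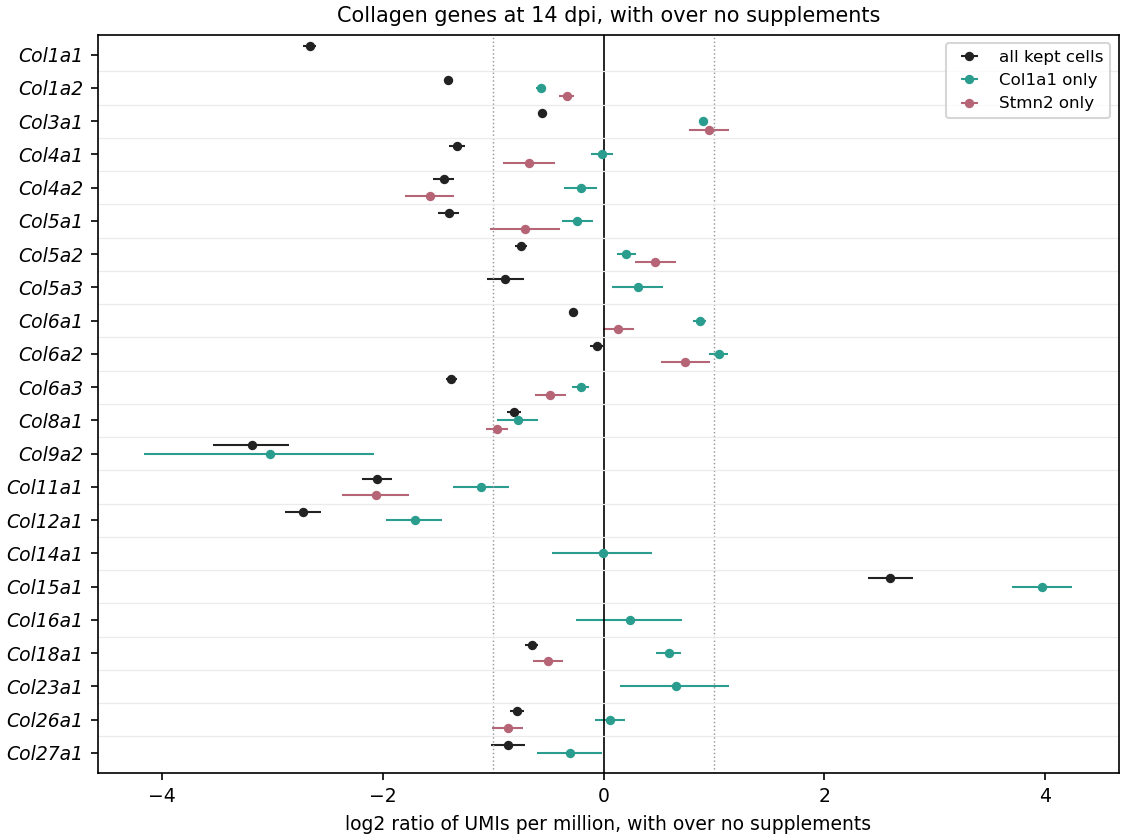
Log2 ratio of CPM with over without supplements at 14 dpi, per collagen gene, in all kept cells, in Col1a1-positive cells and in Stmn2-positive cells; bars are 95% intervals for counting error, dotted lines mark a 2-fold change, and genes under a mean of 10 CPM are left out. Over all cells nearly every point lies left of 0, while within the classes Col3a1 lies at 0.90 and 0.95 and Col15a1 at 3.97 in Col1a1-positive cells.

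Col3a1, Col5a2 and Col6a2 stood higher with supplements in both classes, with intervals above 0. Of these values, that of Col6a2 in Col1a1-positive cells passed 2-fold. Col6a1 was also higher in both, but its interval in Stmn2-positive cells reached just below 0. Col5a2 took 1330 of 3010423 UMIs with supplements and 6022 of 15726925 without supplements in Col1a1-positive cells. In Stmn2-positive cells it took 888 of 21216064 and 311 of 10284149 UMIs. Col3a1 stood at 2601 CPM with supplements and 1394 CPM without supplements in Col1a1-positive cells (log2 0.90, 0.86 to 0.94), and at 56.7 and 29.3 CPM in Stmn2-positive cells (log2 0.95, 0.77 to 1.14). Col1a2 in the same classes stood at -0.56 (-0.61 to -0.52) and -0.34 (-0.40 to -0.27). Col6a2 stood at 540 against 262 CPM in Col1a1-positive cells (log2 1.04, 0.96 to 1.13) and at 36.0 against 21.6 CPM in Stmn2-positive cells (log2 0.74, 0.52 to 0.96), and Col6a1 at 0.87 (0.81 to 0.93) and 0.14 (-0.00 to 0.27). Col6a3 was on the other side of 0 in both, at -0.21 (-0.29 to -0.13) and -0.48 (-0.62 to -0.34). The major fibrillar genes thus did not share a direction: per UMI of Col1a2, Col1a1-positive cells held 1.78 of Col3a1 with supplements, 0.645 without them and 0.867 at 4 dpi.

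Col15a1 was the widest of these differences. In Col1a1-positive cells it stood at 151 CPM with supplements, 9.60 CPM without them and 10.8 CPM at 4 dpi; the log2 ratio with over without supplements was 3.97 (3.70 to 4.25), a 15.7-fold higher level from 454 and 151 UMIs. After thinning, 15.1% of Col1a1-positive cells with supplements held a Col15a1 UMI, against 1.24% without supplements, and 0.808% of Stmn2-positive cells with supplements did. Col9a2 and Col12a1 were lower in Col1a1-positive cells as they were over all cells. Col9a2 stood at -3.02 (-4.16 to -2.08) in Col1a1-positive cells, from 9 UMIs with supplements, and Col12a1 at -1.71 (-1.97 to -1.46). Col11a1 was at least 2-fold lower in both classes, at -1.11 (-1.37 to -0.86) in Col1a1-positive and -2.07 (-2.37 to -1.77) in Stmn2-positive cells. Col4a2 stood at 13.3 CPM with supplements and 39.6 CPM without supplements in Stmn2-positive cells (log2 -1.57, -1.80 to -1.35), but at 144 and 166 CPM in Col1a1-positive cells (log2 -0.21, -0.36 to -0.06). Col8a1 was lower by a like amount in both, at -0.78 (-0.97 to -0.59) and -0.97 (-1.07 to -0.87).

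Cells with UMIs of neither Col1a1 nor Stmn2, 782 with supplements and 1435 without supplements at 14 dpi, were compared in the same way. Collagens apart from Col1a1 stood at 2008 CPM with supplements and 1840 CPM without supplements (log2 0.13, 0.10 to 0.15). Of 17 collagens compared, 4 were at least 2-fold higher with supplements and 1 lower, beside 3.95% and 4.52% of all genes. Col15a1 stood at 33.1 against 3.65 CPM (log2 3.18, 2.78 to 3.61), Col3a1 at 341 against 117 CPM (log2 1.55, 1.47 to 1.63), Col6a2 at 146 against 57.7 CPM (log2 1.34, 1.22 to 1.45) and Col6a1 at 279 against 130 CPM (log2 1.10, 1.02 to 1.19). Col9a2 was the one lower, at 3.36 against 19.1 CPM (log2 -2.50, -3.04 to -2.01). Fibroblast markers in these cells summed to 2673 CPM with supplements and 1760 CPM without supplements, with 5 of 14 at least 2-fold higher, and neuron markers to 7913 and 5882 CPM; their part in these values was not tested.

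Handling genes that passed 2-fold within Col1a1-positive cells went both ways, beside 4.58% of all genes higher with supplements and 4.01% lower. Counts of 0 or 1 in a list are too small to set apart from these shares. At least 2-fold lower with supplements were 1 of 12 modification genes (P4ha1, 128 against 291 CPM, log2 -1.19), 0 of 10 chaperones, 0 of 4 processing genes and 1 of 4 crosslinking genes. That gene was Lox, at 29.9 CPM with supplements and 215 CPM without supplements (log2 -2.84). Of 9 matrix proteins, 2 were higher, Dcn (1719 against 339 CPM, log2 2.34) and Lum (868 against 142 CPM, log2 2.61), and 2 were lower, Tnc (14.6 against 94.4 CPM, log2 -2.69) and Bgn (210 against 566 CPM, log2 -1.43). Of 5 receptors Itga1 was higher, at 181 against 35.2 CPM (log2 2.36). In the same cells fibroblast markers summed to 8425 CPM with supplements and 7317 CPM without supplements, smooth muscle and pericyte markers to 40.5 and 96.1 CPM, chondrocyte markers to 65.4 and 127 CPM, and neuron markers to 4200 and 2794 CPM; their part in the collagen values was not tested. Of the immune markers, Ptprc and Cd3e had 0 UMIs in both. Cd68 had 8 UMIs with supplements and 63 without supplements, and Csf1r had 2 and 3.

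Among Col1a1-positive cells, 14 dpi with supplements was also set against 4 dpi. Collagens apart from Col1a1 stood at 8179 CPM at 14 dpi and 7037 CPM at 4 dpi (log2 0.22, 0.19 to 0.24). Of 19 compared, 4 were at least 2-fold higher at 14 dpi and 1 lower, beside 5.45% and 4.24% of all genes. The 4 were Col15a1 at 3.81 (3.39 to 4.26), Col26a1 at 3.15 (2.82 to 3.48), Col27a1 at 1.18 (0.75 to 1.62) and Col4a1 at 1.03 (0.89 to 1.18), and the one lower was Col14a1 at -1.36 (-1.84 to -0.91). Col26a1 stood at 172 CPM at 14 dpi and 19.4 CPM at 4 dpi. Neuron markers in the same cells summed to 4200 and 1422 CPM, with 9 of 12 at least 2-fold higher at 14 dpi, and their part in the result was not tested.

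The classes used only whether a cell held a Col1a1 UMI; the number of Col1a1 UMIs sorted the other collagens further. In cells without Stmn2 UMIs and with supplements, collagens apart from Col1a1 stood at 2008 CPM in cells with 0 Col1a1 UMIs, 4155 with 1, 6445 with 2 to 5 and 11921 CPM with 6 or more. Without supplements the steps were 1840, 2639, 4543 and 9647 CPM, and at 4 dpi 2807, 4674, 7714 and 11279 CPM. Col3a1 without supplements climbed through 117, 232, 701 and 2121 CPM, while Col8a1 in the same cells read 132, 99.2, 158 and 167 CPM and Col18a1 169, 167, 157 and 178 CPM. With supplements Col18a1 read 118, 151, 203 and 360 CPM and Col15a1 33.1, 47.2, 222 and 171 CPM. Cells with supplements numbered 54 at 1 UMI, 55 at 2 to 5 and 84 at 6 or more. A deeper cell gives more UMIs of every gene, and depth was not held fixed here.

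**Figure D5:**
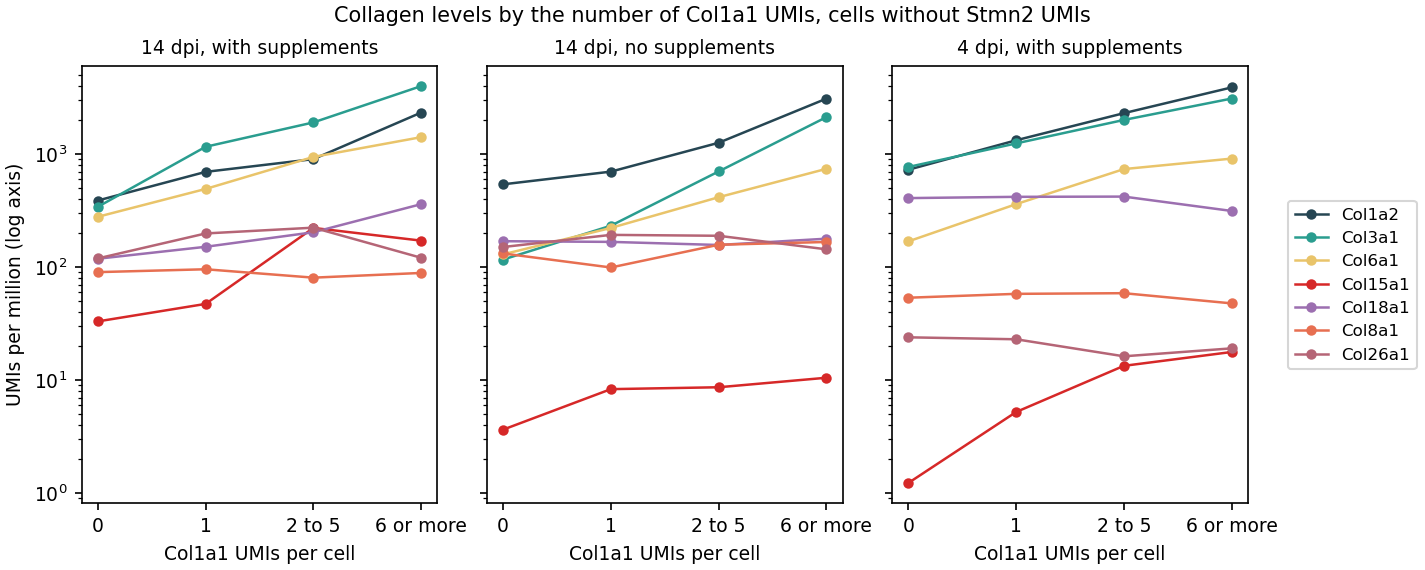
CPM (log axis) of 7 collagen genes in cells without Stmn2 UMIs, grouped by the number of Col1a1 UMIs per cell (0, 1, 2 to 5, 6 or more), for each library; each point is a sum over the cells of 1 step. Col1a2, Col3a1 and Col6a1 climb with Col1a1 in each library, and Col8a1 stays between 80.6 and 95.6 CPM with supplements.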

How the data were processed

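The authors deposited UMI counts, 1 matrix of genes by barcodes per library. Cell Ranger 6.1.1 made them, per the file headers, on GRCm39, per the submitters' processing notes. Libraries were made with 10x Genomics 3′ chemistry, per the labels' protocols. The calling of cell barcodes and the handling of intron reads are not given in the sources used. Features sharing a symbol were summed (31783 features, 31744 symbols).

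Kept barcodes had 500 or more genes and 20% or less mitochondrial UMIs, which removed 153, 177 and 110. Scrublet (scanpy 1.11.5) called 3, 1 and 1 doublets, too few to show that calling worked, and none were removed. UMIs were summed over cells and given as CPM with exact Poisson intervals; log2 ratios and shares have exact binomial (Clopper-Pearson) 95% intervals. A count of 0 entered ratios as 3 counts. Genes with a mean of at least 10 CPM over both sides were compared, and 2-fold was the size counted. Thinning drew 1000 UMIs per cell with seed 1. The ratio calculation was tested on simulated data. Every member is accounted for; those reaching 10 CPM in a library are named, and from each list the genes with the highest and lowest ratios. Members and lists were chosen with earlier results of these data known. Alternatives changed the cell filter, weighting, denominator, centring, doublets, gene minimum and class calls. No paired fit and no model was possible with 1 library per group.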

Additional observations from a re-analysis of the deposited data

Results flagged for a closer look

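Col18a1 differed in direction between the classes. With over without supplements at 14 dpi, its log2 ratio was 0.59 (0.47 to 0.71) in Col1a1-positive cells, where it stood at 257 CPM with supplements and 171 CPM without supplements. In Stmn2-positive cells the ratio was -0.50 (-0.64 to -0.37), from 49.2 CPM with supplements and 69.8 CPM without supplements. Cells with neither gene held 118 CPM with supplements and 169 CPM without supplements. Among Col1a1-positive cells, those with 1 Col1a1 UMI were lower with supplements (151 against 167 CPM). Those with 2 to 5 UMIs (203 against 157 CPM) and 6 or more (360 against 178 CPM) were higher. Each class holds cells of 1 library per group, the intervals cover counting error only, and the difference between the classes was not tested.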

How the results depend on the processing

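Every summed log2 ratio kept its sign under every alternative, and no collagen counted at 2-fold changed sign. No paired analysis was possible because each group holds 1 library. With all deposited barcodes kept, no sum and no count moved beyond its interval or by 1.5 times.

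Values are given in a fixed order: with over without supplements and 14 over 4 dpi in all cells, then Col1a1-positive over Stmn2-positive cells with supplements, without supplements and at 4 dpi; those not named moved less than their interval. Weighting every cell equally gave -1.43 for the times and 3.58, 3.06 and 2.42 for the classes. Leaving mitochondrial and ribosomal protein genes out of the denominator gave -1.12 and -1.42, and 3.58 and 3.02 for the classes at 14 dpi. Centring on the median of all genes gave -1.06 and -1.43, and 3.62 and 3.07 at 14 dpi. Without the 5% of cells with the highest doublet scores the sums were -1.01 and -1.28, and 3.55 and 2.92 at 14 dpi. With 2 UMIs required for a positive cell the classes gave 3.94, 3.21 and 2.24, and with classes called after thinning 4.43, 3.56 and 2.36. Counting cells positive for both genes in each class, an alternative added after the data were seen, gave 2.80, 1.95 and 1.12.

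Without the 10 CPM minimum, collagens at least 2-fold higher and lower with supplements numbered 8 and 14, those higher at 14 than at 4 dpi 12, those higher in Col1a1-positive cells 28 with supplements and 26 without, and those lower in them 2, 3 and 10 by library, many of these from few UMIs. The share of all genes counted without the minimum is not given here. These counts therefore show only that the numbers depend on the minimum. At 4 dpi 3 collagens were lower with 2 UMIs required and 6 after thinning, beside 0 in the values reported. A count of 0 entered as 3 counts, which is a high level in so small a Stmn2-positive class. A gene read in Col1a1-positive cells alone can thus be counted as lower in them. Fmod, of the matrix list, had 19 UMIs in Col1a1-positive and 0 in Stmn2-positive cells, yet a log2 ratio of -2.93. The counts of 10, 3 and 6 at 4 dpi are therefore not read as collagens lower in Col1a1-positive cells. Ratios that dropped under 2-fold without being given above were Col16a1 with supplements (0.83), and Col5a2 (0.80), Col4a2 (0.76) and Col14a1 (0.65) at 4 dpi. Depth limits the 4 dpi classes most, since 36 Stmn2-positive cells held 174 collagen UMIs.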
